A study of Mus musculus with 6 samples.

Results

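The BCL2 family genes that decide between survival and death of a cell were examined in haematopoietic stem cells (HSCs) of Zfp521fl/fl and Zfp521-CKO mice. The 10 genes were taken by their symbol from the 19086 rows of the deposited expression table, and all 10 had a row: the survival genes Bcl2, Bcl2l1 and Mcl1, the pore-forming effectors Bax and Bak1, and the BH3-only genes Bcl2l11, Bid, Bad, Bbc3 and Pmaip1. The cells sequenced carried CD150 but not CD48, within the lineage-negative, Sca-1+ and Kit+ bone marrow fraction (LSK). They were sorted from lethally irradiated CD45.1 recipients, 2 months after transplantation of marrow from CD45.2 donors, and the strain is given as C57BL/6 for all. There were 3 libraries from recipients of Zfp521fl/fl marrow, the control genotype, and 3 from recipients of Zfp521-CKO marrow, labelled deficient in Zfp521, a zinc finger gene. The transplant and the irradiation were shared by both groups. The labels give neither the Cre that deletes Zfp521 nor the age of the mice, nor do they tie a library to its own recipient; p-values therefore measure only how these libraries spread, which may be technical.

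BCL2 proteins control the permeability of the outer mitochondrial membrane. The effectors BAX and BAK form pores that release cytochrome c, which starts the caspase cascade; BCL-2, BCL-XL (from Bcl2l1) and MCL-1 hold them in check, and BH3-only proteins such as BIM (Bcl2l11) and PUMA (Bbc3) bind the survival proteins or activate the effectors. In the mouse, MCL-1 is required for the survival of HSCs, and forced expression of BCL-2 in the blood system raises their number.

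The values behind the results differ in depth and in how many genes they cover. Whole reads could be recovered from the deposited log2 values and came to 7396932 to 10689480 in the controls, and to 56237262, 30698602 and 3137596 in Zfp521-CKO-labelled replicates 1, 2 and 3. Zfp521 itself (ENSMUSG00000024420) had 0, 3 and 0 reads in the controls, against 1519, 126 and 0 in the Zfp521-CKO-labelled libraries, which goes against the labels; the labels do not say which part of the gene is deleted. Directions below are therefore those of the libraries as labelled. Of 10 genes of the sort gate and of HSC identity, Ly6a (Sca-1) and Cd34 had reads in all 6 libraries and Kit in 5, but Slamf1, which encodes CD150, had reads in 1 library and, like Procr and Tek, in no control. Some of these counts were small. Cd34 had 5, 7 and 3 reads in the controls, against 26026, 6311 and 6 in Zfp521-CKO-labelled replicates 1, 2 and 3. Ly6a had 37, 9291 and 6, against 16238, 7516 and 714, and Kit had 127, 0 and 87, against 8971, 7022 and 3. All 10 had a positive difference (Zfp521-CKO minus Zfp521fl/fl, median 4.37 log2 units), as did 73.6% of all genes tested (median over all genes 1.63). Of the 10, 0 were called and 3 had an unadjusted limma p under 0.05, against 5.09% of all genes higher at that limit. Without Zfp521-CKO-labelled replicate 3, limma called 3 of the 10 higher (Cd34, Tek and Esam), against 15.2% of all genes. Cd48, which the gate excludes, had reads in all 6 libraries. In bulk RNA of this kind, fewer cells of a type and less RNA per cell cannot be told apart.

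Starts of 4 of these genes are shown because they stand for the kinds of pattern described next: Bcl2 was read in every library, Mcl1 in all but 1, Bax in 4 and Bcl2l11 in 2. RefSeq promoters came from build GRCm38.p6, from 250 bases before to 50 after the annotated start, written 5′ to 3′ on the gene's strand. They were matched by symbol and are reported for 9 of the 10 genes, with 15 starts in all. Promoters of Pmaip1 are not reported here. Capitals mark matches, on either strand, to the GC box (GGGCGG), the CCAAT box (CCAAT), the TATA box (TATAAA), the E-box (CACGTG), the FOXO core (GTAAACA) and the p53 half-site consensus. No match to one of these motifs overlapped a match to another in the 4 sequences.
Bcl2, chr1:106714241-106714540, minus strand: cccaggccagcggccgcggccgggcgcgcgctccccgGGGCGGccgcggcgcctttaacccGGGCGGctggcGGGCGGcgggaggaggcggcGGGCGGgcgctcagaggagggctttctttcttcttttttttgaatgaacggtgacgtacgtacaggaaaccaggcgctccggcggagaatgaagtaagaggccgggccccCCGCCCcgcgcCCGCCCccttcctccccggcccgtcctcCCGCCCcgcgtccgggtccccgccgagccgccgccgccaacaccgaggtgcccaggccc
Mcl1, chr3:95658471-95658770, plus strand: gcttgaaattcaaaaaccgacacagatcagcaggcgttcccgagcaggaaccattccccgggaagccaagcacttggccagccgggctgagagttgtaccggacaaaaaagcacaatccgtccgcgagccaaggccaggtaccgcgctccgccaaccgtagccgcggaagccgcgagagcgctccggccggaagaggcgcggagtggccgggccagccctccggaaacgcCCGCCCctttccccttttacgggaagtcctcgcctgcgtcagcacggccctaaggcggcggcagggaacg
Bax, chr7:45466849-45467148, minus strand: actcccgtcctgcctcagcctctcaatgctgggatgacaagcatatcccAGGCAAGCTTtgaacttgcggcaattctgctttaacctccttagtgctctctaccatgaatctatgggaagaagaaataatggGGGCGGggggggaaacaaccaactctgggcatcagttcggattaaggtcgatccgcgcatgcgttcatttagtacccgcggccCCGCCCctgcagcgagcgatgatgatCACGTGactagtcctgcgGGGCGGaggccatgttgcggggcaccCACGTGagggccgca
Bcl2l11, the first of its 2 starts, chr2:128125788-128126087, plus strand: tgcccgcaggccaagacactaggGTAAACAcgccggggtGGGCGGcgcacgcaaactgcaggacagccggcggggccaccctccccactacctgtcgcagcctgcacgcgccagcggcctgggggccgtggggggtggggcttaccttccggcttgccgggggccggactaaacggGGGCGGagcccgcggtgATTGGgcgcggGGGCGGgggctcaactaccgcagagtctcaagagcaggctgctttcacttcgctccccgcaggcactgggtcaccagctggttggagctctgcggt

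The promoter of Bcl2 was 76% G and C and held 7 GC boxes and none of the other motifs, and that of Mcl1 held 1 GC box. The promoter of Bax held 3 GC boxes, 2 E-boxes and 1 p53 half-site. The first start of Bcl2l11 held 3 GC boxes, 1 CCAAT box and 1 FOXO core, and its other start held 3 GC boxes, 2 CCAAT boxes and no FOXO core. Among the 32851 promoters of the table, 35.7% held a GC box, 37.4% a CCAAT box, 13.6% a TATA box, 7.15% the E-box, 8.36% a p53 half-site and 3.65% the FOXO core. Of the other members, Bad, Bbc3 and Bid had GC boxes, but 1 of the 2 starts of Bad held no GC box and 1 CCAAT box. Of the 3 starts of Bbc3, 1 held a FOXO core and another held 1 CCAAT box and 1 E-box. No start of Bak1 or Bcl2l1 held any of the motifs, which says only that these letters are not in those windows.

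No member of the family was called different between the groups. In limma's test on the deposited log2(normalized count + 1), with Benjamini-Hochberg adjustment over the 16436 genes with a mean of at least 1 normalized count, 0 of the 10 members had an adjusted p under 0.05, and 0% of all genes tested did. With voom on the recovered reads, limma called 0 members, against 0.894% of all genes higher and 0.0852% of them lower. At an unadjusted p under 0.05, limma gave 0 members, against 5.09% of all genes higher and 0.493% lower in the Zfp521-CKO-labelled libraries. The groups overlapped for all 10 members, whereas 7.17% of genes were higher and 2.05% lower without overlap. The smallest adjusted p of a member was 0.61, for Bcl2l11. Of the members, 9 of 10 had a positive difference (Zfp521-CKO minus Zfp521fl/fl), as did 73.6% of all genes, and their median was 1.30 log2 units against 1.63 over all genes, but with quantile normalization Bcl2l1, Bak1, Bbc3 and Pmaip1 also turned negative.

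**Figure D1:**
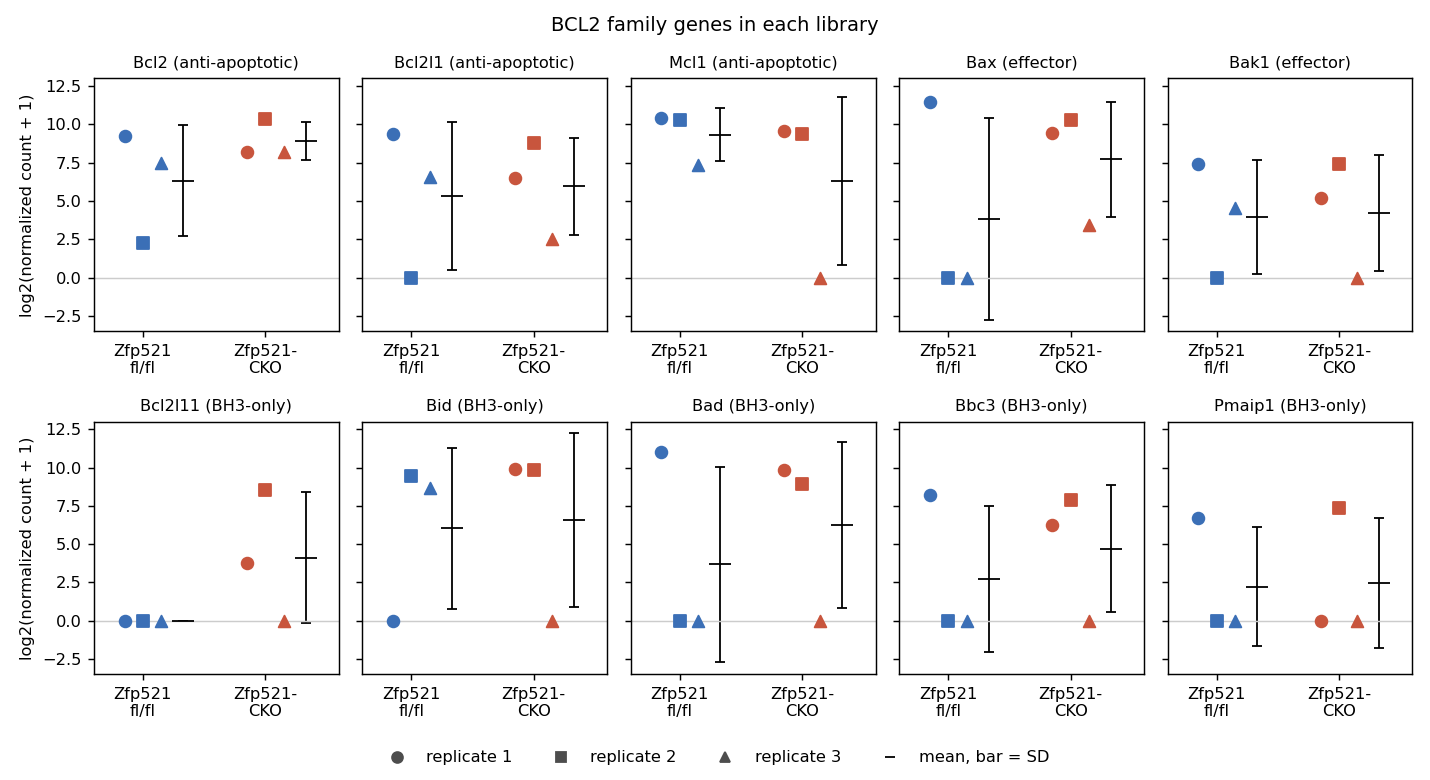
Level of each of the 10 genes in each library on the log2(normalized count + 1) scale (vertical axis), with Zfp521fl/fl libraries in blue and Zfp521-CKO-labelled libraries in red; the marker shape gives the replicate number and the black bar the mean and SD of the 3 libraries. Values at 0 are libraries with no read of the gene, and in every panel the range of one group overlaps that of the other.

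Among the survival genes, Bcl2 (ENSMUSG00000057329), which encodes the founding inhibitor of mitochondrial cell death, was the one member read in all 6 libraries. It stood at log2 values of 9.25, 2.26 and 7.46 in Zfp521fl/fl replicates 1, 2 and 3 (571, 2 and 88 reads) and 8.19, 10.37 and 8.22 in Zfp521-CKO-labelled replicates 1, 2 and 3 (1806, 4250 and 61 reads). Control replicate 2 lay far below the other libraries, and control replicate 1 lay within the range of the Zfp521-CKO-labelled libraries. The means were 6.32 ± 3.63 and 8.93 ± 1.25 (SD, n = 3 each), and the difference of 2.60 (SE 2.24) did not exceed the spread between libraries (limma adjusted p = 0.67). 

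Mcl1 (ENSMUSG00000038612), whose short-lived product HSCs depend on in the mouse, was read in every control, at 10.42, 10.26 and 7.34 (1293, 645 and 81 reads). In the Zfp521-CKO-labelled libraries it was at 9.59, 9.38 and 0 (4788, 2131 and 0 reads). Replicates 1 and 2 lay within the range of the controls, and replicate 3 had no read. Mcl1 was the member with a negative difference, -3.02 (SE 2.65, limma adjusted p = 0.67), from 9.34 ± 1.74 to 6.32 ± 5.48 (SD, n = 3 each). Without Zfp521-CKO-labelled replicate 3 the difference was 0.14 (SE 1.41, limma adjusted p = 0.95), so the negative sign depended on that library. Per 1000000 reads of a library, the 0 reads there allow up to 0.956, while the other libraries gave 10.8 to 121.

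Bcl2l1 (ENSMUSG00000007659), which encodes BCL-XL, the survival protein of red cell precursors and platelets, was at 9.40, 0 and 6.56 in the controls (637, 0 and 47 reads) and at 6.51, 8.79 and 2.55 in the Zfp521-CKO-labelled libraries (561, 1416 and 1 reads). The lowest value of each group was 0 or rested on 1 read, and the highest came from the controls. The means were 5.32 ± 4.82 and 5.95 ± 3.16 (SD, n = 3 each), with a difference of 0.63 (SE 2.99, limma adjusted p = 0.94).

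Of the effectors, Bax (ENSMUSG00000003873) was at 11.44 in Zfp521fl/fl replicate 1 with 2611 reads and had no reads in replicates 2 and 3. It was at 9.45, 10.31 and 3.42 in the Zfp521-CKO-labelled libraries, with 4334, 4084 and 2 reads. The highest and the lowest values of the gene were thus both controls. The difference of 3.92 (SE 3.43) lay within the spread between libraries (3.81 ± 6.60 and 7.73 ± 3.75, SD, n = 3 each, limma adjusted p = 0.67). 

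Bak1 (ENSMUSG00000057789), the partner of Bax in pore formation, was at 7.41, 0 and 4.51 in the controls (159, 0 and 11 reads) and at 5.18, 7.40 and 0 in the Zfp521-CKO-labelled libraries (220, 540 and 0 reads). Each group thus held 1 library without a read, and the highest values of the groups were nearly equal. Its difference was 0.22 (SE 2.99, limma adjusted p = 0.98). 

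Bcl2l11 (ENSMUSG00000027381), which encodes BIM, the BH3-only protein that removes blood cells deprived of cytokines, was the member with reads in no control. It had 80 and 1183 reads in Zfp521-CKO-labelled replicates 1 and 2, log2 values of 3.79 and 8.53, and 0 reads in replicate 3. In reads per 1000000 reads of the library (RPM), replicate 2 was at 38.5 (95% exact Poisson interval 36.4 to 40.8) and replicate 1 at 1.42 (1.13 to 1.77). Each control had 0 reads, which allows up to 0.281, 0.406 and 0.402 RPM (3 reads per library). Against the highest of these limits, the measured value of replicate 2 was 95-fold and that of replicate 1 was 3.51-fold. The lower ends of their intervals would give smaller folds. The intervals and limits hold for counting error alone, because PCR copies of 1 molecule may have been counted as separate reads. On the log2 scale, the 2 libraries with reads differed from each other by more than replicate 1 differed from 0. The difference of 4.11 (SE 2.37) had an unadjusted p of 0.11 and an adjusted p of 0.61 in limma's fit. Without Zfp521-CKO-labelled replicate 3 it was 6.16 (SE 1.55, limma adjusted p = 0.07). With weights per library, where that library received 0.24, limma called Bcl2l11 higher (6.67, adjusted p = 0.0491), and over all alternatives its adjusted p ran from 0.0491 to 0.82. It was then 1 of 10 members, against 9.93% of all genes called higher in that fit. Absence from the controls together with reads in those 2 libraries alone was found in 12.2% of the genes tested.

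Bid (ENSMUSG00000004446), which encodes the BH3-only protein that links death receptors to the mitochondria, was missing from a library that held most other members. It had no reads in Zfp521fl/fl replicate 1, the control in which Bax, Bad and Bcl2l1 were highest, and was at 9.45 and 8.68 in replicates 2 and 3 (367 and 206 reads). It was at 9.88, 9.82 and 0 in the Zfp521-CKO-labelled libraries (5855, 2893 and 0 reads). The 4 values above 0 lay close together, between 8.68 and 9.88, while each group had 1 library at 0. The difference was 0.52 (SE 3.41, limma adjusted p = 0.96). Reads in all libraries but these 2 were found in 0.907% of the genes tested.

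Bad (ENSMUSG00000024959), whose product is held inactive by 14-3-3 proteins while growth factors signal, and Bbc3 (ENSMUSG00000002083), the p53 target that encodes PUMA, shared 1 pattern. Bad was at 11.03, 0 and 0 in the controls (1966, 0 and 0 reads) and at 9.86, 8.90 and 0 in the Zfp521-CKO-labelled libraries (5763, 1530 and 0 reads). Bbc3 was at 8.20, 0 and 0 in the controls (277, 0 and 0 reads) and at 6.25, 7.86 and 0 in the Zfp521-CKO-labelled libraries (469, 741 and 0 reads). Both were highest in Zfp521fl/fl replicate 1 and without reads in replicates 2 and 3 and in Zfp521-CKO-labelled replicate 3. Of all genes tested, 8.27% had reads in the same 3 libraries and in no other. Their differences were 2.58 (SE 3.71, limma adjusted p = 0.76) and 1.97 (SE 3.19, limma adjusted p = 0.79). 

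Pmaip1 (ENSMUSG00000024521), which encodes NOXA, the BH3-only protein that binds MCL-1, had reads in 1 library of each group, 96 in Zfp521fl/fl replicate 1 and 518 in Zfp521-CKO-labelled replicate 2, at log2 values of 6.69 and 7.34. It had none in the other 4, and these included the deepest library, Zfp521-CKO-labelled replicate 1, where 0 reads allow up to 0.0533 RPM. The difference was 0.22 (SE 2.80, limma adjusted p = 0.98).

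**Figure D2:**
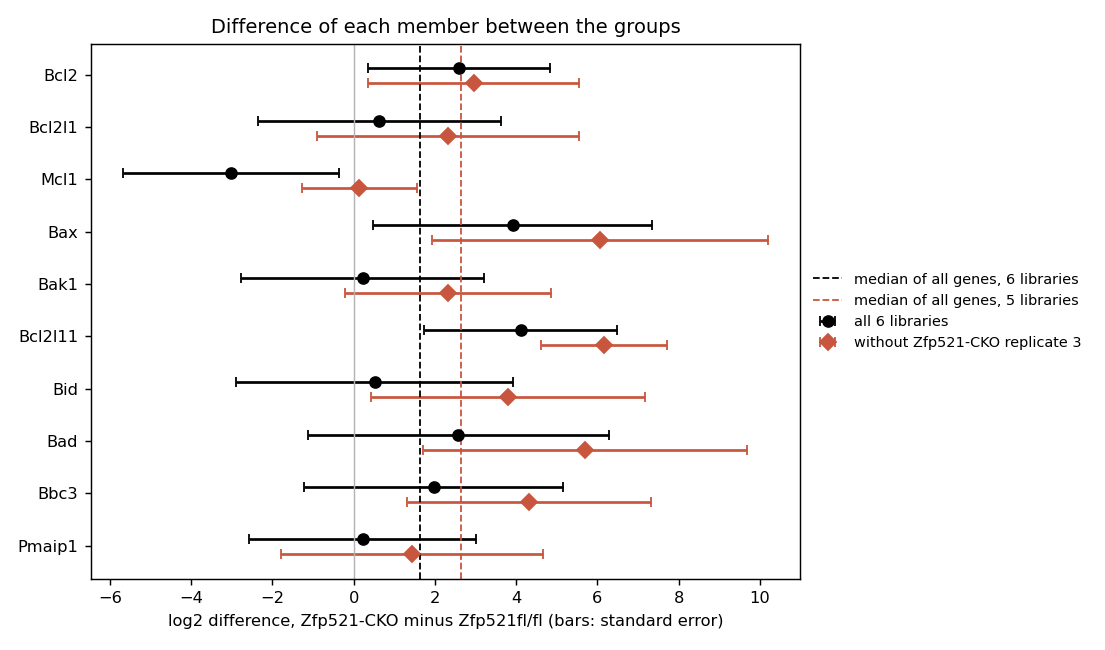
Log2 difference of each gene, Zfp521-CKO minus Zfp521fl/fl (horizontal axis), with its standard error from limma, from all 6 libraries (black circles) and without Zfp521-CKO-labelled replicate 3 (red diamonds); dashed lines give the median of all genes tested in each fit. Leaving out that library moved every gene to the right and moved the median of all genes from 1.63 to 2.64.

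The standard errors of the members ran from 2.24 to 3.71 log2 units with a median of 2.99, against 2.39 over all genes tested. Without Zfp521-CKO-labelled replicate 3, all 10 members had a positive difference, with a median of 3.38 against 2.64 over all genes, of which 80.1% were positive. No member passed an adjusted p of 0.05 in that limma fit, which called 15.2% of all genes higher and 0.208% lower. The groups did not overlap for Bcl2l11 and Bid, both higher in the 2 remaining libraries, against 31.6% of all genes higher without overlap.

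Survival and death genes were also described by how often they were read at all. The 3 survival genes had reads in 16 of 18 values (88.9%), 8 of 9 in each group. The 7 death genes had reads in 22 of 42 values (52.4%), 8 of 21 (38.1%) in the controls, against 14 of 21 (66.7%) in the Zfp521-CKO-labelled libraries. Over all genes tested the shares were 58.4% in all, 46.9% in the controls, against 69.9% in the Zfp521-CKO-labelled libraries. The share with reads was thus higher in the Zfp521-CKO-labelled libraries for the death genes and for all genes. By library, the controls had reads of 8, 3 and 5 members and the Zfp521-CKO-labelled libraries of 9, 10 and 3, where 59.5%, 36.6%, 44.6%, 90.4%, 80.3% and 39.0% of all genes tested had reads. Survival and death genes are few, and no test was made of the difference between the classes.

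**Figure D3:**
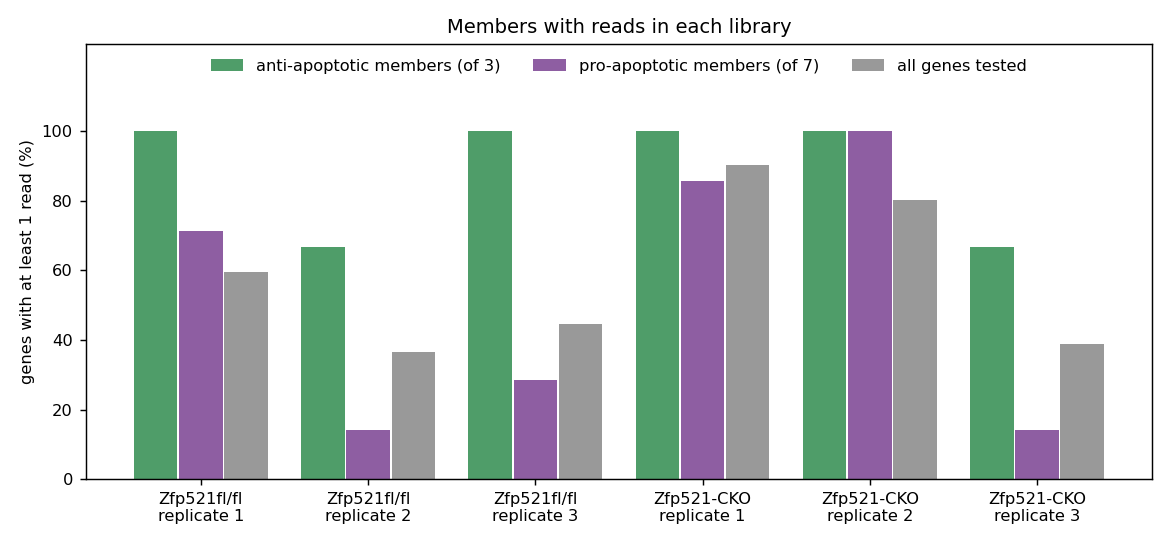
Share of genes with at least 1 read in each library (vertical axis, percent) for the 3 anti-apoptotic members (green), the 7 pro-apoptotic members (purple) and all 16436 genes tested (grey). The survival genes stood at 2 or 3 of 3 in every library, while the death genes ranged from 1 of 7 in Zfp521fl/fl replicate 2 and in Zfp521-CKO-labelled replicate 3 to 7 of 7 in Zfp521-CKO-labelled replicate 2.

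Values at 0 were set against depth. When the reads of each library were thinned to the 3137596 of the shallowest, members with reads numbered 8, 2, 5, 9, 10 and 3, so that 1 value (Bcl2 in Zfp521fl/fl replicate 2) was lost. Of the 22 values at 0 among the 60, 15 would have been 10 reads or more at the lowest level that the gene had in any other library where it was read, and 2 would have been 3 reads or fewer. Mcl1 would have had 33 reads in Zfp521-CKO-labelled replicate 3 at its lowest level elsewhere and 282 at its highest. Bid would have had 385 in Zfp521fl/fl replicate 1, and Bad 251 and 240 in replicates 2 and 3. Pmaip1 would have had 634 in Zfp521-CKO-labelled replicate 1. The 2 shallow cases were Bcl2l1 in Zfp521fl/fl replicate 2 and Bcl2l11 in Zfp521-CKO-labelled replicate 3. Values at 0 of this kind were found across the table. Of 15919 values at 0 in the 10817 genes with reads in at least 3 libraries, 38.4% would have been 10 reads or more, and the same held for 10 of 14 (71.4%) among the members with reads in at least 3 libraries.

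**Figure D4:**
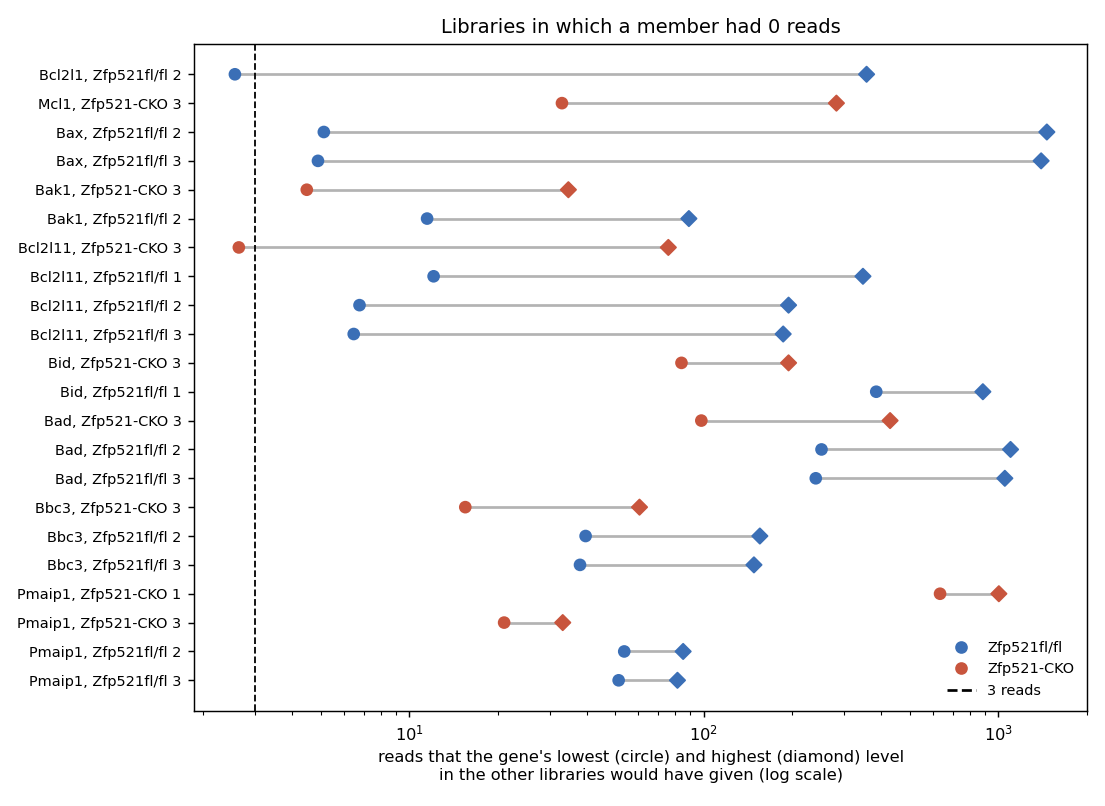
Each line is 1 of the 22 cases in which a gene had 0 reads in a library; the horizontal axis (log scale) gives the reads it would have had there at its lowest (circle) and highest (diamond) level in the other libraries with reads, in blue for Zfp521fl/fl and in red for Zfp521-CKO-labelled libraries. The diamonds run from 33.2 to 1461 reads and the dashed line marks 3 reads.

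The balance of survival against death genes was described in each library, with no test, since the members were chosen. The genes differ in length, so it was formed from log2(normalized count per kilobase of exon + 1), an alternative added after seeing the data. The mean of the 3 survival genes exceeded that of the 7 death genes by 1.74, 1.91 and 3.32 in Zfp521fl/fl replicates 1, 2 and 3. The excess was 0.61, 0.05 and 1.63 in Zfp521-CKO-labelled replicates 1, 2 and 3. The 2 deepest libraries gave the lowest values, and Zfp521-CKO-labelled replicate 3 lay just below Zfp521fl/fl replicate 1. The means were 2.32 ± 0.87 and 0.76 ± 0.80 (SD, n = 3 each). Not divided by length, the excess was 3.30, 2.82 and 5.23 in the controls, against 1.75, 0.92 and 3.10 in the Zfp521-CKO-labelled libraries, of which replicate 3 then lay within the range of the controls (means 3.78 ± 1.28 and 1.92 ± 1.10, SD, n = 3 each). Both measures take a gene without reads as 0, so they move with the number of members read.

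The ratio of Bcl2 to Bax per kilobase, a common index of the threshold for death, could be formed in the 4 libraries that read both. On the log2 scale it was -4.73 in Zfp521fl/fl replicate 1 and -3.80, -2.48 and 2.39 in Zfp521-CKO-labelled replicates 1, 2 and 3. The last of these rests on 2 reads of Bax. With 1 control, no comparison between the groups was possible.

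Levels of different genes were compared per kilobase of exon. Bax led the family in the 3 libraries that read at least 8 members, with 1759, 442 and 808 normalized counts per kilobase in Zfp521fl/fl replicate 1 and Zfp521-CKO-labelled replicates 1 and 2. Bad, Bid and Mcl1 followed, with Bad at 816, 362 and 186, Mcl1 at 402, 225 and 194, and Bid at 0, 265 and 254 in the same libraries. Below them came Bbc3 at 138, 35.5 and 109, Bcl2l1 at 147, 19.7 and 96.2, Bcl2 at 66.2, 31.7 and 145 and Bak1 at 70.1, 14.7 and 69.9. Pmaip1 stood at 37.3, 0 and 59.1, and Bcl2l11, at 0, 1.6 and 45.9, was the lowest member with reads in the latter 2. Neighbours in this order overlapped in their ranges, so the order of Bad, Mcl1 and Bid among themselves, and of Bbc3, Bcl2l1, Bcl2 and Bak1, is not set by the data. The order was another one in the libraries with fewer members: Mcl1 led in Zfp521fl/fl replicate 2 with 358, Bid in replicate 3 with 115, and Bcl2 led in Zfp521-CKO-labelled replicate 3 with 32.4. The survival genes held 17.9%, 64.6% and 41.0% of the summed level per kilobase of the 10 genes in the controls, against 19.8%, 22.1% and 84.4% in the Zfp521-CKO-labelled libraries. The 3 libraries with the most members read thus lay close together, across the groups, at 17.9% to 22.1%.

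Markers of other cells moved with the libraries. The 15 neutrophil and granulocyte markers, of which 13 to 15 had reads in each library, made up 15.2%, 12.6% and 14.0% of all reads of the controls but 0.0362%, 1.46% and 12.9% of those in Zfp521-CKO-labelled replicates 1, 2 and 3. In that replicate 3 the markers did not move alike. S100a8 was at a log2 value of 19.82 there, against 19.62, 19.66 and 19.99 in the controls. Prtn3 was at 4.92, against 13.07, 13.72 and 14.19, and Ms4a3 at 0, against 10.45, 12.66 and 11.70. All 15 had a negative difference, whereas 73.6% of all genes tested had a positive one. With all libraries, 0 of the 15 were called and 11 had an unadjusted limma p under 0.05, against 0.493% of all genes lower at that limit. Without Zfp521-CKO-labelled replicate 3, limma called 3 lower (Lcn2, Mpo and Prtn3), against 0.208% of all genes. Mmp8 was at 0 in 4 libraries, and S100a8, S100a9, Camp and Ngp were read in every library. The 10 monocyte and macrophage markers made up 0.836%, 0.838% and 0.354% of the controls and 0.112%, 0.274% and 0.836% in the Zfp521-CKO-labelled libraries. Most of these reads in every library were of Lyz2, so the share is mainly that of a single gene. Lyz2 had 64662, 48692 and 19167 reads in the controls, against 59874, 64759 and 24760 in the Zfp521-CKO-labelled libraries. The 3 B cell markers in the table had reads in 1 library, Zfp521-CKO-labelled replicate 1, at 0.0136%. T and NK cell, erythroid and megakaryocyte markers took at most 0.187% in any library. Without Zfp521-CKO-labelled replicate 3, limma called 2 of the 6 megakaryocyte markers higher (Gp9 and Vwf), against 15.2% of all genes. Beside the neutrophil shares given above, Zfp521fl/fl replicates 1, 2 and 3 read 8, 3 and 5 members, and Zfp521-CKO-labelled replicates 1, 2 and 3 read 9, 10 and 3. The part of these cells in the results was not tested.

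The rest of the pathway gave no call either. Of 62 further genes in 5 lists, 57 had a row and all 57 were tested, and 0 had a limma adjusted p under 0.05. Of these, 43 had a positive and 14 a negative difference, where 73.6% of all genes were positive, with a median of 2.24 against 1.63 over all genes. Without Zfp521-CKO-labelled replicate 3, limma called 8 of 55 higher (14.5%), a share near the 15.2% of all genes. They included Bok and Bnip3 of the wider family and Casp9, Casp2, Diablo, Endog and Dffa of the caspase list, and each gene named here had 0 to 7 reads in any control.

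In the wider BCL2 family, 10 of 15 genes were in the table, 8 with a positive and 2 with a negative difference (73.6% of all genes were positive). Bok, a BAX-like effector, had no reads in any control and 511, 934 and 0 in the Zfp521-CKO-labelled libraries (difference 4.86, SE 2.50, limma adjusted p = 0.61). Bnip3, a mitochondrial BH3-type protein induced by low oxygen, had 2033, 442 and 0 reads there and none in the controls (5.16, SE 2.59, limma adjusted p = 0.61). These are the libraries and the absences of Bcl2l11. Bcl2a1b, of the A1 family of survival genes, had 169, 0 and 10 reads in the Zfp521-CKO-labelled libraries and none in the controls (3.48, SE 1.99, limma adjusted p = 0.61). Its near-identical copies Bcl2a1d and Bcl2a1a had 875 and 51 reads in Zfp521-CKO-labelled replicate 3 and in no other library, and reads may be shared between the copies. In that library, where Mcl1 had none, Bcl2a1d stood at a log2 value of 12.06, above Bcl2 at 8.22.

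Downstream of the pore, 12 of the 14 genes of the apoptosome and the caspases had a positive difference, against 73.6% of all genes. Cycs, which encodes cytochrome c, was read in every library, with log2 values of 10.91, 10.15 and 12.07 in the controls, against 12.09, 10.55 and 6.75 in the Zfp521-CKO-labelled libraries. Apaf1, the scaffold of the apoptosome, was also read in every library, at 8.17, 2.26 and 5.20 in the controls, against 6.07, 7.87 and 11.27 in the Zfp521-CKO-labelled libraries. Casp9, the initiator caspase that it activates, had no reads in the controls, against 399, 694 and 0 in the Zfp521-CKO-labelled libraries (4.60, SE 2.41, limma adjusted p = 0.61). Dffa, the inhibitor of the DNase of apoptosis, had the same absences, with 1864, 1006 and 0 reads (5.51, SE 2.69, limma adjusted p = 0.61). Diablo, whose product relieves caspase inhibition, had 6, 0 and 0 reads in the controls, against 10211, 806 and 0 in the Zfp521-CKO-labelled libraries (5.26, SE 3.06, limma adjusted p = 0.61).

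All 7 inhibitor of apoptosis genes had a positive difference, as did 73.6% of all genes, with a median of 1.28 for the 7. Birc3 (3.11, SE 3.09), Naip5 (1.93, SE 2.72) and Birc5 (1.62, SE 2.49) were the genes of smallest p here, with limma adjusted p of 0.67, 0.75 and 0.78. Birc5, which encodes survivin and also acts in mitosis, had 1672, 1 and 1959 reads in the controls, so replicate 2 lay far below the other controls there too. 

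Of the 8 genes of the mitochondrial pore and of mitochondrial shape, 7 had a positive difference, against 73.6% of all genes. The median of the 8 was 2.49. Mff, which recruits the fission enzyme DRP1, was at 9.57, 3.63 and 3.45 in the controls, against 9.95, 9.48 and 10.51 in the Zfp521-CKO-labelled libraries (4.43, SE 2.14, limma adjusted p = 0.61). Its groups overlapped through control replicate 1. Vdac3, an outer membrane channel, differed by 2.83 (SE 1.95) and Opa1, a fusion protein of the inner membrane, by 4.75 (SE 3.34), both with a limma adjusted p of 0.67. 

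Among the 18 regulators of the family, 9 had a positive and 9 a negative difference, where 73.6% of all genes were positive. Their median was 0.06, against 1.63 over all genes. Dynll2, a dynein light chain that binds the BH3-only protein BMF, was at 7.41, 2.74 and 0 in the controls, against 8.45, 8.83 and 10.17 in the Zfp521-CKO-labelled libraries. Pim2, a survival kinase that phosphorylates BAD, was at 3.08, 0 and 2.80 in the controls, against 9.52, 7.73 and 3.96 in the Zfp521-CKO-labelled libraries. Bag1, a co-chaperone that binds BCL-2, was at 10.25, 0 and 10.28 and at 11.32, 10.93 and 11.47. For these 3, and for no other gene of the 5 lists, the groups did not overlap, with higher values in the Zfp521-CKO-labelled libraries (3 of 57 genes, against 7.17% of all genes tested), but their differences of 5.77 (SE 2.50), 5.11 (SE 2.61) and 4.40 (SE 2.50) were not called (limma adjusted p = 0.61 each). The lowest value of Pim2 in that group rests on 3 reads. Ywhaz and Dynll1 were read in all 6 libraries, between 10.83 and 12.54 for Ywhaz, whose 14-3-3 product holds BAD, and between 11.36 and 12.72 for Dynll1, the partner of BIM on microtubules.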

How the data were processed

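RNA-seq of 6 libraries, 3 of each genotype, was used as deposited. Per the submitters' processing notes, Bowtie, DESeq2 1.26.0 and the mouse build mm9 were used, with no role stated; the counter and gene annotation were not given in the sources used here. Although the table carries the name FPKM, the authors deposited log2 values: with the log undone and 1 subtracted, a value was a whole multiple of 1 step per library for 99.7% of 61139 values above 0 (tolerance 0.001 read). A value is thus the log2 of 1 plus a scaled count, with 1 scaling factor for each library and no division by length. The other 213 values lay in 1 block of 75 rows that held no member and no gene of the further lists, but 1 monocyte marker (Ccr2). In the controls 1 read was worth 1.06, 1.90 and 1.98 normalized counts, and in the Zfp521-CKO-labelled libraries 0.161, 0.312 and 4.86. A log2 value of 0.57 thus stands for 3 reads at the greatest depth and one of 3.96 at the lowest.

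Genes with a mean of at least 1 normalized count were tested with limma 3.58.1 (R 4.3.3; lmFit, then eBayes with a trend; genotype only; two-sided p), Benjamini-Hochberg adjustment over every gene tested and a threshold of 0.05. The pseudocount of 1 can make log2 differences too small for low genes. The script was tested on simulated counts. These did not model values at 0 of the kind described above, so limma's performance with them was not tested. Exonic lengths came from GENCODE M21, of another build than mm9, and are the union of all exons; levels per kilobase are approximate. No coordinates of the files are given. The members and the lists were chosen with earlier results of these data known. All 10 members are named, and in each further list the 3 genes with the smallest p; Bcl2a1d, Bcl2a1a, Bcl2l12, Casp6, Cycs, Apaf1, Stat5a, Trp53, Ywhaz, Dynll1 and the genes called without 1 library were named after their values were seen. One gene of the lists is not reported here. Intervals are 95% exact Poisson intervals (scipy 1.17.1).

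Alternatives were a pseudocount of 0.1, other filters, quantile, total and median-ratio scaling, weights per library, a robust fit, a fit with no trend, the replicate block, each library left out, voom on recovered reads, thinned reads and the table without the block of rows.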

Additional observations from a re-analysis of the deposited data

How the results depend on the processing

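Over 20 alternatives, 173 of 191 member differences kept their direction and stayed short of the threshold. The number of genes called by limma was 0 with all libraries, 17 with quantile normalization (5 higher, 12 lower), 161 with voom on recovered reads, 1660 with weights per library, and 0 to 2530 when 1 library was left out, the highest without Zfp521-CKO-labelled replicate 3. Members called numbered 1 with weights per library (Bcl2l11, 6.67) and 0 in the others. Quantile normalization lowered the median difference of all genes from 1.63 to 0.22 and turned Bcl2l1 to -0.96, Bak1 to -2.31, Bbc3 to -0.32 and Pmaip1 to -0.96, and voom turned Pmaip1 to -0.04; the cause was not tested. With 1 library left out, differences ranged from -2.03 to 2.67 for Bcl2l1, -4.65 to 0.14 for Mcl1, -2.50 to 3.81 for Bid, -1.76 to 2.32 for Bak1 and -2.23 to 2.45 for Pmaip1. Without a change of sign they ranged from 0.57 (without Zfp521fl/fl replicate 2) to 4.07 for Bcl2, 2.01 to 7.73 (without Zfp521fl/fl replicate 1) for Bax, 0.74 to 6.25 for Bad, 0.39 to 4.70 for Bbc3 and 1.90 (without Zfp521-CKO-labelled replicate 2) to 6.16 for Bcl2l11. The excess of survival over death genes differed between the groups by -1.86, and by -2.79 to -0.88 over the alternatives (-1.56 per kilobase). The replicate numbers were not taken as a pairing, since same-numbered libraries did not deviate together (r across genes 0.03, -0.04 and 0.01); with the replicate block, limma called 0 genes and 0 members, and no direction changed. Among genes with reads in all 6 libraries, Bcl2 was the one member left. In the shallowest library, 0 reads allow up to 0.956 reads in 1000000, so lower levels were not detectable there.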

Other observations

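Zfp521fl/fl replicate 2, which had 2 reads of Bcl2 and none of Bax, Bcl2l1, Bad, Bak1 or Bbc3, held the highest values of some other genes of the same lists, picked here after their values were seen. Casp6, an executioner caspase, was at a log2 value of 12.84 there with 3868 reads, against 2.88 and 9.40 in the other controls and 9.77, 8.58 and 0 in Zfp521-CKO-labelled replicates 1, 2 and 3. Bcl2l12, a BCL2-like gene, was at 12.11 there, against 2.39 and 7.04 in the other controls and 8.65, 7.69 and 0. Stat5a, a cytokine-activated transcription factor that induces survival genes in blood cells, was at 12.92, against 2.39 and 10.17 in the other controls and 8.67, 9.82 and 3.96. The same library read Mcl1 at 10.26, within the range of the libraries that read many members. It read Bid at 9.45, where Zfp521-CKO-labelled replicates 1 and 2 were at 9.88 and 9.82 and Zfp521fl/fl replicate 1 had no read. Trp53, which encodes p53, had 11, 2 and 185 reads in the controls, against 15726, 3001 and 0 in the Zfp521-CKO-labelled libraries (difference 2.24, limma adjusted p = 0.76).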
